A study of Triticum aestivum with 96 samples.

Results

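Spring Norstar is a near isogenic wheat line with the genome of the hardy winter cultivar Norstar and the dominant spring allele Vrn-A1 of the cultivar Manitou, moved in by 10 backcrosses. Its crowns after 70 d in the cold were compared with its crowns after 42 d in the cold. The comparison rests on 6 samples of the 96 in the series, 3 at 70 d and 3 at 42 d, and takes in all 61179 probesets that are not Affymetrix controls, of the 61290 on the Wheat GeneChip. All plants entered the cold at the 3-leaf stage and were kept at 6 °C under long days, and each sample was the RNA of 25 pooled crowns, hybridized to 1 array. The comparison asks what differs between crowns at the last sampled day and crowns at 42 d in a line that does not need cold to flower. Lines set beside it are winter Norstar, with the recessive vrn-A1 allele in the same background, and spring Manitou, with the same Vrn-A1 allele in the less hardy background. Both have 3 arrays at 70 d and 3 at 42 d. The allele was followed by the spring habit of the plants, and genes linked to Vrn-A1 may have come along with it.

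The crown is the short stem base of a cereal seedling. It carries the shoot apex and the young leaf bases, and a plant whose crown survives frost can regrow. In the cold, crowns build up dehydrins, LEA proteins (hydrophilic proteins that accumulate in drying or frozen cells) and COR proteins (products of cold-regulated genes), many of them driven by CBF transcription factors. VRN1, the MADS-box gene at Vrn-A1, together with FT, the mobile flowering signal, moves the apex from making leaves to making a spike. Plants that have passed this switch lose frost tolerance, and older leaf bases later break down their proteins and export the nitrogen and sugars.

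Values are log2 RMA signals, a scale on which a difference of 1 is a 2-fold difference, and they ran from 1.92 to 14.73 over the table. A probeset was called higher or lower where the limma adjusted p was under 0.01 and the difference was at least 2-fold. In bulk crowns, fewer cells of a type and less RNA per cell cannot be told apart. Bread wheat carries several closely related genomes, and a probeset may read copies of a gene from more than 1 of them. Descriptions were held for 1362 probesets only, most of them from a list that the study had selected on these samples because lines responded differently over time in the cold. Of that list 1742 probesets were used here. Counts by gene group, above all those of differences between lines, are therefore not independent evidence. They are best read against all described probesets, of which 135 (9.91%) were higher and 75 (5.51%) lower at 70 d.

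The 3 arrays at 70 d were close to each other, with a Pearson r of 0.995 to 0.996 over all probesets, whereas the 3 at 42 d were further apart. Arrays 1 and 3 at 42 d correlated with each other at 0.985. Array 2 at 42 d correlated with them at 0.987 to 0.988 and with the 3 arrays of spring Norstar at 56 d at 0.996 to 0.997. Arrays 1 and 3 were also more like single arrays of other days than each other, with a highest r of 0.992 for array 1, at 35 d, and of 0.991 for array 3, at 56 d. The 42 d group was thus mixed as a whole. Array 2 had the smallest SD of deviations from the group means, 0.22, against 0.24 for array 1 and 0.23 for array 3, and estimated array weights were 0.44 for array 2, 0.23 for array 1 and 0.27 for array 3. The median SD of a probeset over 3 arrays was 0.12 at 70 d, 0.20 at 42 d and 0.11 at 56 d. Values without array 2 at 42 d, the omission that raised the counts most, are given along with those without the other 42 d arrays where a call depends on them.

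**Figure D1:**
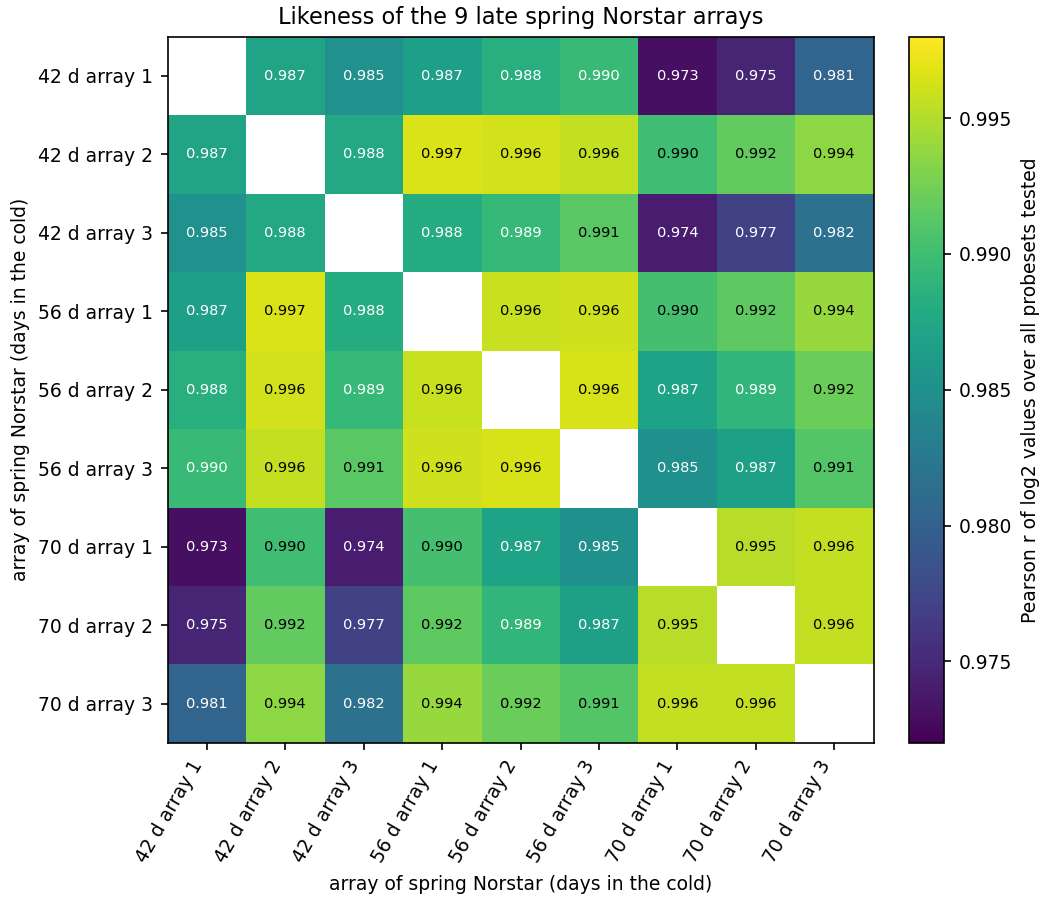
Pearson correlation of log2 values over all 61179 probesets between the 9 spring Norstar arrays of 42 d, 56 d and 70 d (rows and columns, colour and number both give r). The row of 42 d array 2 is brightest against the 56 d arrays, at 0.996 to 0.997, and the 2 other 42 d arrays are darkest against 70 d arrays 1 and 2, at 0.973 to 0.977.

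At 70 d, 1116 probesets (1.82% of those tested) were higher and 404 (0.66%) were lower than at 42 d, 1520 in all (2.48%). Of these, 58 were at least 4-fold higher and 27 at least 4-fold lower. The median difference over all probesets was -0.02. The groups did not overlap for 1480 of the calls, against 29.8% of all probesets. Calls were chosen for a large difference on these same arrays, so this is a description only. Array 2 at 42 d was the 42 d array closest to the 70 d mean for 1036 of the 1116 higher and 286 of the 404 lower probesets, which is 87.0% of the calls and 53.9% of all probesets. Without it, 2027 probesets (3.31%) were higher and 719 (1.18%) lower, 4.49% in all, and 1500 of the 1520 calls remained in the same direction. Without array 1 at 42 d, 797 were higher and 246 lower, and without array 3, 798 and 549. The fit takes its spread from all 96 arrays, and with the 6 arrays alone only 3 probesets were higher and 1 lower. The p-values thus rest on a spread pooled over 32 groups of samples, which the study names as biological replicates. The 42 d samples varied more, with a median SD of 0.20, against a median residual SD of 0.15 in the fit. P-values that involve the 42 d group may therefore be too small.

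The largest described rises included a metacaspase, SAG12, a LEA protein, a laccase and a sucrose transporter. A putative metacaspase, one of a family of plant cysteine proteases linked to cell death, had signals of 11.36, 11.63 and 11.13 at 70 d, against 8.00, 9.71 and 8.09 at 42 d. Every 70 d array was above every 42 d array, and the difference was 2.77 (SE 0.31), or 6.83-fold, with an adjusted p of 1.6e-10. SAG12, the vacuolar cysteine protease long used as a marker of leaf senescence, reached 10.85, 10.91 and 10.29 at 70 d, against 8.55, 9.69 and 5.62 at 42 d. The 42 d arrays were widely spread, and the difference of 2.73 (SE 0.65, adjusted p = 0.00074) depended on the lowest of them. It was 1.57 without array 3 at 42 d and no longer passed (adjusted p = 0.083), and 3.60 without array 2.

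A late embryogenesis abundant protein stood at 7.64, 7.79 and 7.52 at 70 d, against 4.74, 5.72 and 4.33 at 42 d. This was a 6.58-fold rise (2.72, SE 0.30, adjusted p = 1.3e-10), with array 2 again the highest of the 42 d arrays. A MYB family transcription factor had 9.55, 9.59 and 8.79 at 70 d, against 7.24, 7.70 and 5.93 at 42 d, a difference of 2.35 (SE 0.41, adjusted p = 4.7e-06). An abscisic stress-ripening protein, of a small hydrophilic family induced by abscisic acid and water loss, had 13.12, 13.65 and 13.07 at 70 d, against 11.00, 12.34 and 10.73 at 42 d. It was bright on both days and rose 3.79-fold with no overlap.

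The leading rises also held enzymes of phenol and lignin chemistry. Laccase-11, of the oxidases that join lignin units in the wall, had 10.49, 10.82 and 10.35 at 70 d, against 7.55, 9.33 and 8.32 at 42 d, a 4.45-fold rise (2.15, SE 0.25, adjusted p = 5.7e-10). Ferulate-5-hydroxylase, the enzyme of the step towards syringyl lignin, had 10.20, 10.37 and 9.59 at 70 d, against 7.37, 9.20 and 7.46 at 42 d. A class III peroxidase, a secreted enzyme, had 7.04, 7.26 and 6.69 at 70 d, against 5.02, 5.73 and 4.23 at 42 d. These rises were 4.12-fold and 4.02-fold, and in neither did the days overlap. SUT1D, the sucrose carrier that loads sugar into the phloem, had 11.53, 11.65 and 11.26 at 70 d, against 8.76, 10.46 and 9.26 at 42 d, a 3.97-fold rise that became 5.55-fold without array 2 at 42 d. An IBR domain protein, a phosphatase and a vacuolar sorting receptor rose by 2.08, 2.02 and 1.90. Of the 12 leading described rises, all but SAG12 were called in each of the 6 fits that left out 1 array.

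The largest described fall was that of a 32 kDa protein, with 4.96, 5.41 and 6.39 at 70 d, against 9.95, 8.73 and 9.40 at 42 d. The difference was -3.77 (SE 0.39), a 13.6-fold lower signal, with an adjusted p of 3.1e-11. VER2, a jacalin-type lectin described in wheat as induced by vernalization, had 4.93, 6.02 and 6.85 at 70 d, against 9.35, 8.42 and 8.96 at 42 d, and was 7.86-fold lower. Both probesets carry the number of 1 transcript cluster and may not be separate genes. An O-methyltransferase had 7.96, 8.13 and 9.18 at 70 d, against 11.38, 11.04 and 11.02 at 42 d, a fall of 2.72 (SE 0.30, adjusted p = 8.7e-11).

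Among the other leading falls were a protease inhibitor and a thionin. A Bowman Birk trypsin inhibitor, which blocks digestive proteases of insects, had 4.84, 5.23 and 5.94 at 70 d, against 8.60, 7.15 and 7.61 at 42 d, and was 5.46-fold lower. Thionin Osthi1, a small cysteine-rich antimicrobial peptide, had 4.83, 5.96 and 5.71 at 70 d, against 8.84, 6.79 and 7.69 at 42 d. Its difference of -2.27 (adjusted p = 0.00022) was -1.74 without array 1 at 42 d and no longer passed (adjusted p = 0.014). The putative enzyme that forms methyl jasmonate had 5.62, 6.21 and 6.36 at 70 d, against 8.33, 7.22 and 7.98 at 42 d, a 3.44-fold fall. A major facilitator superfamily antiporter fell by 2.56, an NAD dependent epimerase by 1.89, a glucan endo-1,3-beta-glucosidase by 1.81, a thiol protease by 1.76, a transmembrane protein by 1.69 and an ankyrin repeat protein by 1.62. The leading rises and falls had been taken from probesets whose days did not overlap, so that property is no support for them.

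**Figure D2:**
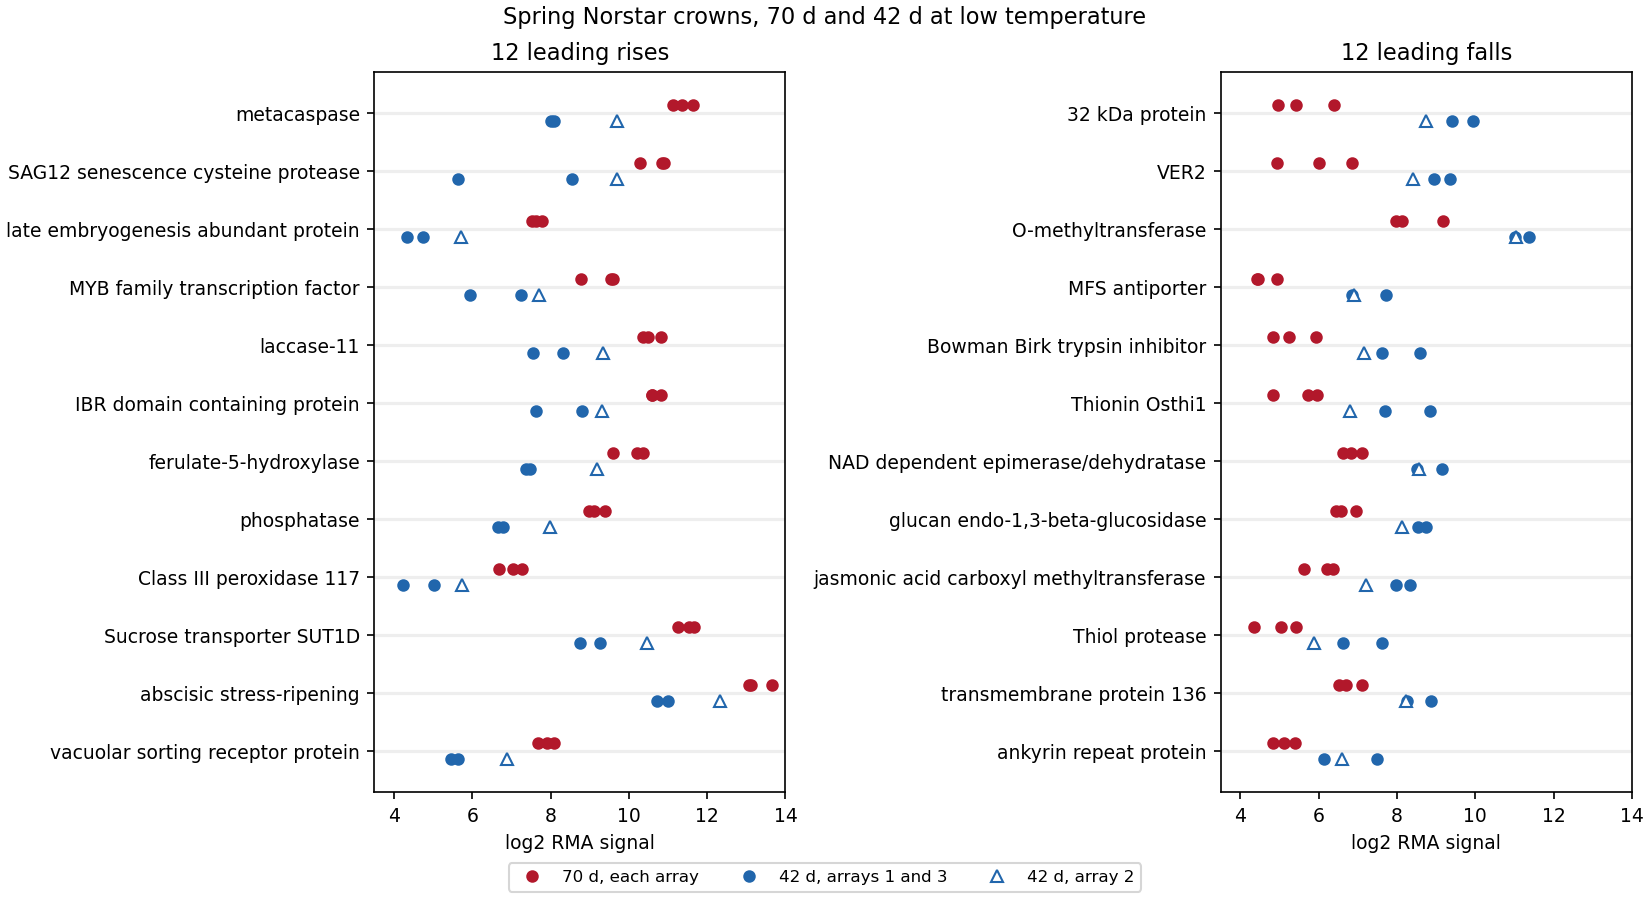
Log2 RMA signal of each array for the 12 leading described rises (left) and 12 leading described falls (right), with the 70 d arrays as red dots, 42 d arrays 1 and 3 as blue dots and 42 d array 2 as an open triangle. Rows were chosen for days that do not overlap. In all 12 rises the triangle is the 42 d symbol closest to the 70 d dots.

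Probesets without a description moved as far. One had 5.39, 6.12 and 6.59 at 70 d, against 10.87, 9.01 and 10.04 at 42 d, and was 15.3-fold lower. Another was 7.78-fold lower. The 2 largest undescribed rises were 9.41-fold and 7.35-fold, and the smaller of them had 5.59, 7.86 and 3.92 at 42 d and fell short of the call without array 3 (adjusted p = 0.013). Of the 1520 calls, 210 had a description, 135 of them higher and 75 lower.

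Some genes of dividing cells fell. All 39 probesets of the histone list, which takes in 1 HMG-I/Y chromatin protein, had a negative difference, with a median of -0.77, against -0.02 over all probesets. Of them 10 were called lower and none higher, beside 5.51% lower among all described probesets. At an adjusted p under 0.01 with no limit on the fold 36 were lower. At that limit 8.25% of all probesets were lower, and 457 of the 1742 in the study's list. Without array 1 at 42 d 5 were called lower, and without array 2 at 42 d 13 were. A histone H4 probeset, the histone of the nucleosome core with the fewest variants, had 10.87, 11.16 and 11.19 at 70 d, against 12.49, 11.98 and 12.17 at 42 d. That is a fall of 1.14 (SE 0.12, adjusted p = 2.0e-11) without overlap. Another H4 probeset fell by 1.41 and a histone H3 probeset by 1.24. Histones are encoded by many near-identical copies, so 1 probeset can read several of them and the list's members are not separate measurements. The mean signal over the list was 11.53, 11.73 and 11.80 in the 70 d arrays, against 12.56, 12.37 and 12.45 in the 42 d arrays.

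Of 41 probesets of the cell cycle and DNA replication, 7 were lower and 1 higher, with a median of -0.72. Among all described probesets 5.51% were lower and 9.91% higher. MCM3, a subunit of the helicase that opens DNA at replication origins, had 9.93, 10.07 and 10.20 at 70 d, against 11.34, 11.11 and 11.15 at 42 d, a fall of 1.13. A second MCM3 probeset fell by 1.57. Replication protein A2, which coats single-stranded DNA, fell by 1.23 and the spindle checkpoint protein mad3 by 1.17. The exception was a kinesin motor protein, a motor on microtubules, with 10.78, 10.65 and 10.64 at 70 d, against 9.18, 9.90 and 9.44 at 42 d. Not one of 15 ribosomal protein probesets passed the 2-fold limit, yet all had a negative difference (median -0.47). With no limit on the fold 14 were lower at an adjusted p under 0.01, beside 457 of the 1742 in the study's list. Without array 1 at 42 d, 4 cell cycle probesets were lower.

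Genes of the plant cell wall rose on balance. Of 52 probesets 15 were higher and 1 lower, against 9.91% and 5.51% of described probesets, and the median was 0.40. Cellulose synthase A subunits, which spin cellulose at the cell surface, made up 6 of the 15. Cellulose synthase A subunit 4, of the secondary wall complex in rice, had 12.26, 12.47 and 12.21 at 70 d, against 10.35, 11.47 and 10.64 at 42 d. It rose 2.81-fold (1.49, SE 0.18, adjusted p = 1.3e-09), and the days did not overlap. Both probesets of subunit 9 rose, by 1.82 and 1.71, and may not be separate measurements. Lignin enzymes followed, with 2 probesets for caffeic acid O-methyltransferase (1.44 and 1.24), 1 for cinnamyl alcohol dehydrogenase (1.30) and 3 laccases (1.18 to 2.15). A fasciclin-like arabinogalactan protein rose by 1.13 and a glycine-rich cell wall protein by 1.11. The single fall was an endoglucanase, which cuts beta-glucans, at 5.72, 5.77 and 6.05 at 70 d, against 7.03, 7.08 and 6.85 at 42 d. Without array 2 at 42 d, 19 were higher and 2 lower.

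Genes of sugar and solute transport rose more often than they fell. Of 42 transporter probesets 11 were higher and 3 lower (median 0.45), against 9.91% and 5.51% of described probesets. With no limit on the fold 25 were higher, beside 11.3% of all probesets and 507 of the 1742 in the study's list. Besides SUT1D, a peptide transporter PTR2 rose by 1.52 and a citrate carrier, known for aluminium tolerance, by 1.44. Aquaporins, the water channels, were found in both directions, with NIP2-2 and TIP4-2 higher by 1.24 and 1.34 and NIP1-1 and PIP2 lower by 1.11 and 1.14. NIP1-1 changed by -0.97 without array 1 at 42 d, short of the call. The TIP4-2 arrays met between the days, since 42 d array 2 stood at 8.37 and the 70 d arrays at 9.37, 8.37 and 8.20. Without array 1 at 42 d, 7 transporters were higher. Of 19 sugar and fructan probesets 3 were higher and none lower. One was beta-fructosidase, which splits sucrose or fructans, with 7.16, 8.16 and 7.01 at 70 d, against 5.68, 5.95 and 5.49 at 42 d. The others were SUT1D and sucrose synthase 2, which had 13.41, 13.54 and 13.41 at 70 d, against 11.76, 12.78 and 12.27 at 42 d.

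Proteases and other senescence genes went both ways. Of 28 probesets 6 were higher and 2 lower, against 9.91% and 5.51% of described probesets, with a median of 0.19. Besides the metacaspase and SAG12, 2 aspartic proteases rose by 1.39 and 1.14 and the subtilisin homologues OsSub41 and OsSub47, named after rice, by 1.27 and 1.05. The 2 that fell were the thiol protease named above and serine carboxypeptidase OsSCP10, with 6.49, 6.24 and 6.63 at 70 d, against 7.86, 7.65 and 7.76 at 42 d. Without array 3 at 42 d, 3 of the list were higher. No ubiquitin or proteasome probeset of 26 was called in either direction. Of 9 probesets of chlorophyll breakdown and nitrogen recycling only amino acid permease I was higher, by 1.20. That call was lost without array 1 at 42 d.

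**Figure D3:**
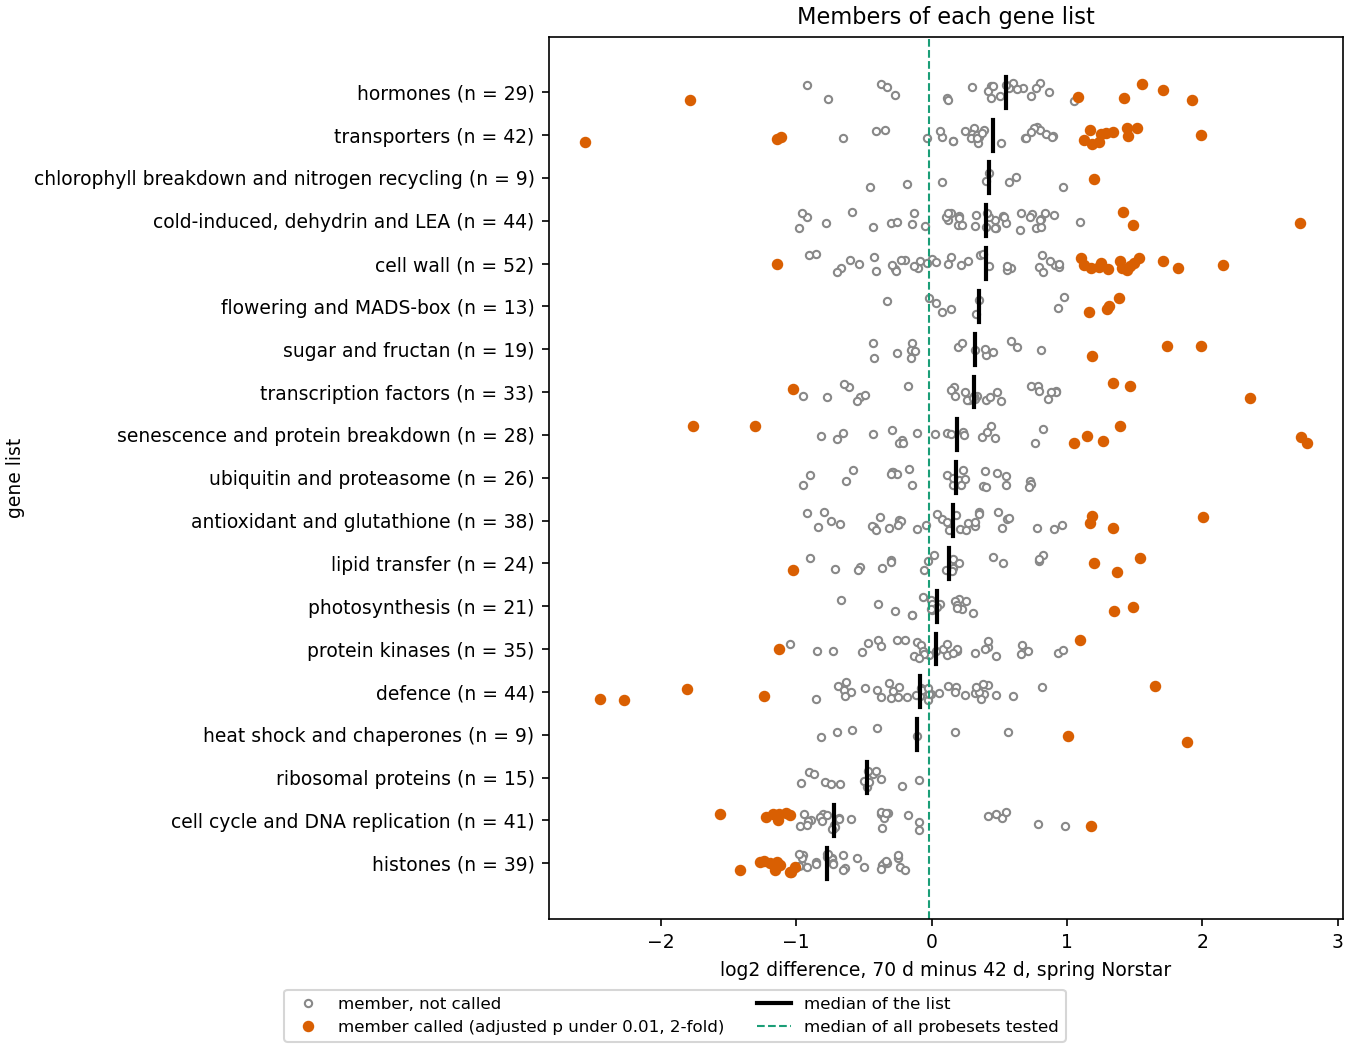
Difference of 70 d minus 42 d in spring Norstar (log2, x axis) for each member of 19 gene lists (rows, ordered by their median), with called members filled, others open, list medians as black bars and the median of all probesets as a dashed line. The histone and cell cycle rows lie furthest left, with medians of -0.77 and -0.72, and the hormone and transporter rows furthest right, at 0.55 and 0.45.

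Flowering genes rose in part. Of 13 probesets of flowering and MADS-box genes 4 were higher and none lower (median 0.35), against 9.91% and 5.51% of described probesets. An FT-like probeset had 9.73, 8.99 and 9.02 at 70 d, against 8.13, 8.60 and 7.13 at 42 d, a rise of 1.30 (SE 0.27, adjusted p = 0.00011). The other FT-like probeset, of the same transcript cluster, rose by 1.16, MADS-box protein 8 by 1.39 and a Cen-like protein, of the family that delays flowering in other plants, by 1.31. All 4 fell short of the call without array 3 at 42 d, and 2 were called without array 1 at 70 d. VRN-A1 itself had 10.95, 10.83 and 10.84 at 70 d, against 10.92, 10.81 and 10.47 at 42 d, a difference of 0.14 (SE 0.18, adjusted p = 0.61). A second VRN1 probeset, named VRT1, had 10.37, 10.17 and 10.26 at 70 d, against 9.28, 9.78 and 8.96 at 42 d. Its difference of 0.93 (adjusted p = 0.00043) was short of 2-fold, and 1.15 without array 2 at 42 d. Probe annotation describes both as copies of VRN1. The study aligned their target sequences and matched the first to Vrn-A1 and VRT1 to Vrn-B1, a copy on another chromosome. It takes them as distinct genes with different profiles. It adds that the VRT1 probes do not separate Vrn-B1 from Vrn-D1 and might read another similar MADS-box gene. Whether the probesets share transcripts was not tested here.

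Of 44 dehydrin, LEA and COR probesets 3 were higher, against 9.91% of described probesets, none was lower and the median was 0.40. Those that rose were the LEA probeset named above, a second LEA probeset (1.42) and a probeset with opposing names, given last. BLT14.1, a cold-induced transcript first known from barley leaves, had 13.00, 12.30 and 12.46 at 70 d, against 11.81, 11.70 and 12.03 at 42 d, with an adjusted p of 0.013. COR14a, a chloroplast COR protein, had 11.01, 10.88 and 11.02 at 70 d, against 12.54, 11.23 and 12.07 at 42 d, a difference of -0.98 (adjusted p = 0.096). COR14b, a dehydrin and BLT14.2 had differences of -0.95, -0.92 and -0.78 that missed the test, and these 3 were called lower without array 2 at 42 d. The probeset with opposing names is called photosystem II 10 kDa polypeptide in the study's text and a LEA-type embryonic protein in its list, and is counted in both groups. It had 7.25, 5.77 and 6.87 at 70 d, against 5.12, 5.14 and 5.16 at 42 d, and its call (adjusted p = 0.0057) was kept in only 1 of the 6 fits that left out an array. The single CBF gene with a description, CBFIVb-A20, stood at 4.80, 4.72 and 4.34 at 70 d, against 4.67, 4.74 and 5.40 at 42 d.

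In all, 27 probesets are named in the study's text for a large cold response. The study chose them on these samples, for a large change in winter Norstar. Without array 2 at 42 d, 6 of them were higher and 3 lower. With all arrays 6 were higher and none lower, beside 9.91% higher and 5.51% lower among all described probesets. Besides SAG12, beta-fructosidase, the glycine-rich protein and the probeset with opposing names, these were a protamine-like and an arginine/serine-rich protein, with differences of 1.30 and 1.14. The protamine-like probeset had 9.58, 8.12 and 8.11 at 70 d, against 7.37, 7.13 and 7.41 at 42 d, so array 1 at 70 d set its size, and it was not called without that array. The arginine/serine-rich and glycine-rich calls were each lost without array 1 at 42 d (0.92 and 0.96) and without array 1 at 70 d (0.86 and 0.97). The remaining 21 did not pass, among them gamma-thionin at 12.31, 12.02 and 12.24 at 70 d, against 12.38, 12.24 and 12.18 at 42 d.

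Of 29 hormone probesets 5 were higher and 1 lower (median 0.55), among them a SAUR auxin-response gene (1.55) and a gibberellin regulated protein (1.42). Of 38 antioxidant probesets 4 were higher, of 33 transcription factors 3 were higher and 1 lower, and of 24 lipid transfer probesets 3 were higher and 1 lower. These counts stand beside 9.91% higher and 5.51% lower among all described probesets and say nothing particular of the groups. Of 44 defence probesets 1 was higher and 4 were lower (median -0.08). The one that rose was a dirigent-like protein, of a family that steers phenol coupling, with 9.44, 9.53 and 9.07 at 70 d, against 7.97, 7.78 and 7.35 at 42 d. Of 9 chaperones 2 small heat shock proteins were higher, by 1.89 and 1.00, and of 35 protein kinases 1 was higher and 1 lower.

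Photosynthesis genes mark green leaf and sheath bases in a crown sample. Of 21 probesets 2 were higher, among them the probeset with opposing names, and none was lower, with a median of 0.04. Among all described probesets 9.91% were higher and 5.51% lower, so these counts say nothing particular of the group. Without array 3 at 42 d none was higher. The mean signal of the list was 8.74, 8.71 and 8.93 in the 70 d arrays, against 8.76, 8.56 and 8.67 in the 42 d arrays. The ranges of the days overlapped, and the part of green tissue in the other results was not tested.

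Of the 1520 called probesets, 1310 (86.2%) had a 56 d mean between the means of 42 d and 70 d, against 52.8% of all probesets. Probesets chosen for a wide gap between these days favour a mean inside it, so this is a description only. Against 42 d, 3 probesets were called at 56 d (0.0049%), all higher, with 9311 at an unadjusted p under 0.05. They were an undescribed probeset, the lipid transfer protein Tfm5 and an iron/ascorbate-dependent oxidoreductase, which rose by 1.07 from a dim signal. At 70 d against 56 d, 690 were called (1.13%), 534 higher (0.873%) and 156 lower (0.255%). These comparisons share arrays with the main one. Without array 2 at 42 d, 148 probesets (0.242%) were called at 56 d against 42 d.

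Over the 8 sampled days of the cold treatment the leading genes differed in shape. The metacaspase of spring Norstar averaged 10.74 at 0 d, 8.08 at 14 d, 8.60 at 42 d, 8.76 at 56 d and 11.37 at 70 d, and every array at 70 d (11.13 to 11.63) was above every array at 0 d (10.60 to 10.90). SAG12 was dim until 35 d (4.31 ± 1.67) and averaged 7.95 ± 2.10 at 42 d, 9.08 ± 0.74 at 56 d and 10.68 ± 0.34 at 70 d (SD, n = 3). The 32 kDa protein was at 6.60 at 0 d, 9.92 at 21 d, 9.36 at 42 d, 8.60 at 56 d and 5.59 at 70 d. Histone H4 held between 12.44 and 12.60 up to 35 d, then averaged 12.22 at 42 d, 12.00 at 56 d and 11.07 at 70 d. FT-like stood higher on each later day, at 5.30 at 0 d, 7.95 at 42 d and 9.25 at 70 d.

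**Figure D4:**
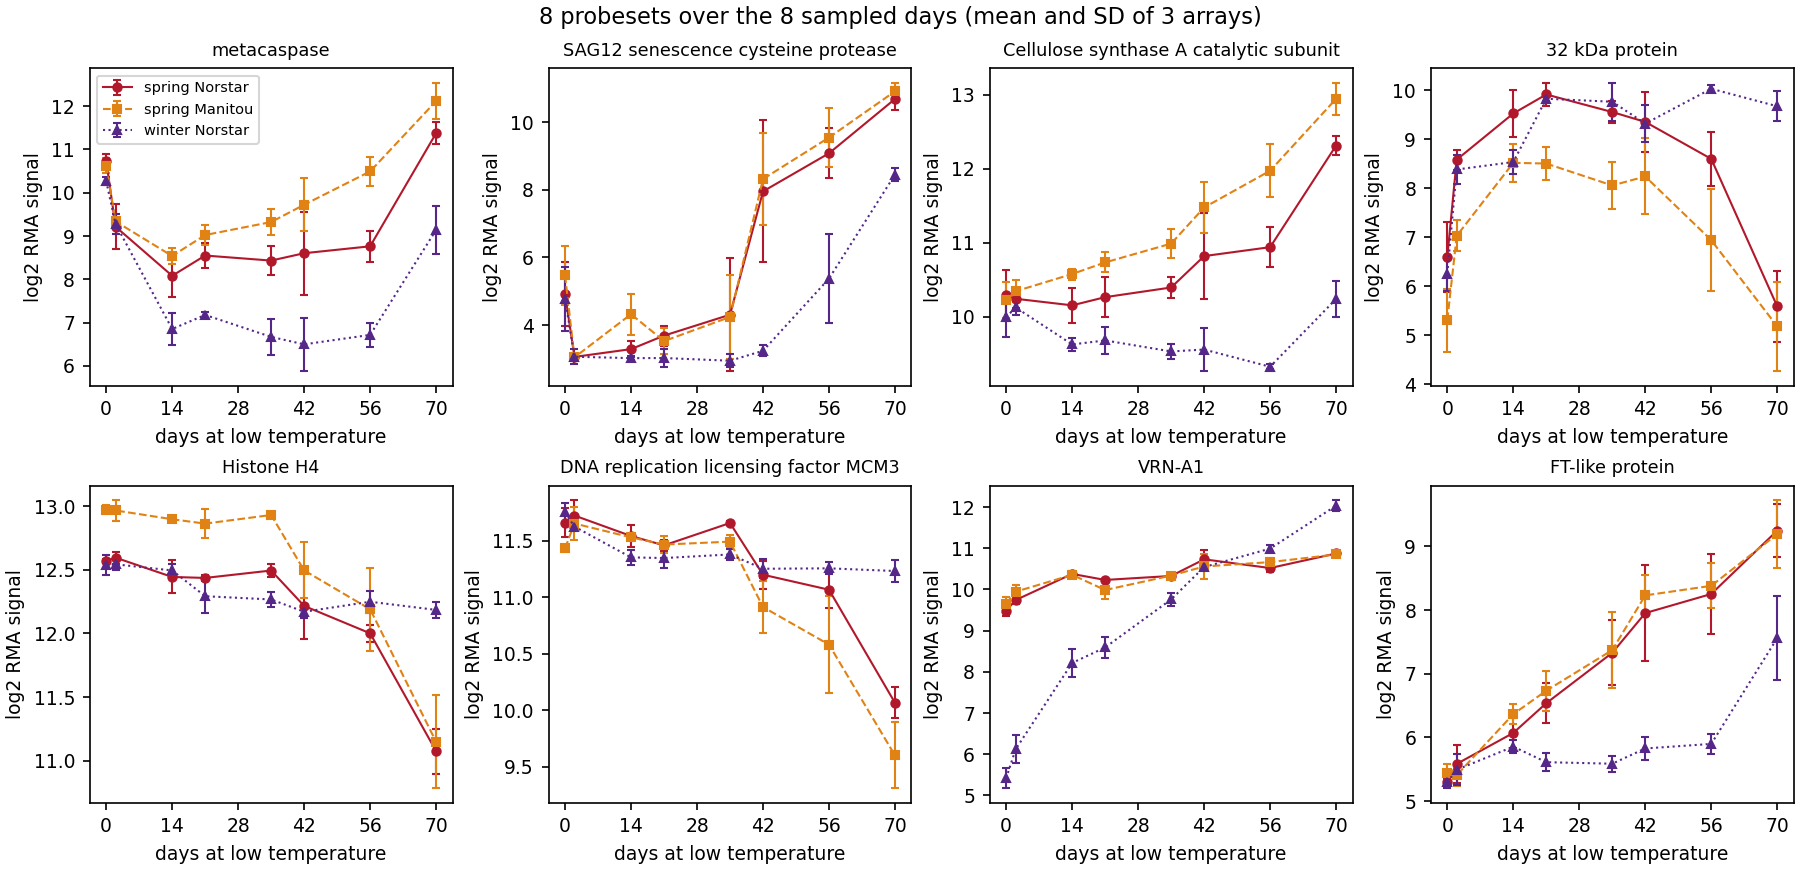
Mean log2 RMA signal and SD of 3 arrays over the 8 sampled days at low temperature for 8 probesets in spring Norstar (red circles), spring Manitou (orange squares) and winter Norstar (purple triangles). In spring Norstar the step from 56 d to 70 d is the largest between sampled days for metacaspase (8.76 to 11.37), the 32 kDa protein (8.60 to 5.59) and Histone H4 (12.00 to 11.07), while VRN-A1 averages 10.87 at 70 d in spring Norstar, against 12.04 in winter Norstar.

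Set against winter Norstar, which has the same background but the winter allele, the change over these days differed for 524 probesets (0.857%), 227 more positive (0.371%) and 297 more negative (0.485%) in spring Norstar. In winter Norstar itself 353 probesets (0.577%) were higher and 269 (0.44%) lower at 70 d than at 42 d, 1.02% in all. Of the 1520 calls of spring Norstar, 1057 of the 1116 higher and 287 of the 404 lower had the same sign there, with medians of 0.60 and -0.19, against 1.21 and -1.17 in spring Norstar. Called the same way in both lines were 256, which is 16.8% of the calls of spring Norstar and 41.2% of those of winter Norstar. For 282 of the 1520 the change itself differed between the lines. Without array 2 at 42 d, 907 probesets (1.48%) differed.

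For 12 of the 39 histone probesets and 6 of the 41 cell cycle probesets the change differed from that of winter Norstar, beside 189 of the 1742 probesets (10.8%) of the study's list. In winter Norstar the medians were 0.02 and 0.00 and no histone was called. Histone H4 changed by -1.14 in spring Norstar and by 0.01 in winter Norstar, whose arrays stood at 12.11, 12.21 and 12.23 at 70 d, against 12.13, 12.15 and 12.22 at 42 d. The difference of the changes was -1.16 (adjusted p = 2.0e-06). No flowering probeset was called lower in either line, and 3 of the 13 differed between the lines. In winter Norstar 8 of 13 were higher (median 1.49), beside 87 of the 1742 in the study's list. VRN-A1 rose there by 1.49, to 12.17, 12.04 and 11.90 at 70 d, against 10.47, 10.58 and 10.59 at 42 d, and the difference between the lines was -1.35 (adjusted p = 0.00017). MADS2 and Squamosa promoter-binding-like protein 13 also differed, by -1.35 and -1.80. CBFIVb-A20 fell by 2.21 in winter Norstar and changed by -0.32 in spring Norstar, a difference of 1.90 (adjusted p = 0.0031). Its signal in spring Norstar was dim on both days, with no array above 5.40.

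The 6 leading described differences from winter Norstar were of both signs. The 32 kDa protein, which fell by 3.77 in spring Norstar, stood at 9.74, 9.34 and 9.95 at 70 d in winter Norstar, against 9.67, 9.36 and 8.93 at 42 d (difference of the changes -4.12, SE 0.56, adjusted p = 5.3e-07). The O-methyltransferase that fell and VER2 differed by -3.46 and -3.24. O-methyltransferase 3 had 8.44, 7.79 and 7.61 at 70 d, against 6.08, 6.53 and 5.56 at 42 d, and its change differed by 3.10. A fruit bromelain-like protease and a jacalin-like lectin overlapped between the days in spring Norstar, with differences of -0.24 and 0.33, but rose by 3.11 and 3.44 in winter Norstar. Photosynthesis genes had a median of -0.58 in winter Norstar, with 6 of 21 lower, beside 67 of the 1742 in the study's list. Of the 21, 7 differed between the lines, beside 10.8% of that list, which was selected for differences between lines over time.

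Set against spring Manitou, which shares the Vrn-A1 allele, the change differed for 60 probesets (0.0981%), 44 more positive (0.0719%) and 16 more negative (0.0262%), with 6391 at an unadjusted p under 0.05. Without array 2 at 42 d of spring Norstar 147 differed, and without array 2 at 70 d of spring Manitou 28 did. In spring Manitou 925 probesets (1.51%) were higher and 700 (1.14%) lower at 70 d than at 42 d, 2.66% in all. Of the 1520 calls of spring Norstar, 1506 had the same sign in spring Manitou, and the medians there were 1.04 for the higher and -1.19 for the lower probesets. The same call was made for 858, or 56.4% of the calls of spring Norstar and 52.8% of those of spring Manitou. Histones had a median of -1.19 there, with 27 of 39 lower, beside 166 of the 1742 in the study's list. No histone, cell cycle or cell wall probeset differed between the spring lines. In the study's list only 20 of 1742 (1.15%) did, so the absence says nothing particular of these groups. Whether the contrast with winter Norstar is larger than the contrast with spring Manitou was not tested.

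Among described probesets, 5 of the 6 leading differences from spring Manitou were not called within spring Norstar. The subtilisin homologue OsSub7, a serine protease, had 6.96, 8.13 and 8.16 at 70 d, against 7.68, 8.90 and 6.24 at 42 d, which overlap. In spring Manitou it had 7.92, 6.41 and 6.15 at 70 d, against 9.80, 9.49 and 9.40 at 42 d, and the changes differed by 2.88 (SE 0.55, adjusted p = 0.0023). A second OsSub7 probeset and OsSub6, of the same transcript cluster, differed by 2.67 and 2.08, and an amylase inhibitor-like protein by 2.35. HVA22, a membrane protein induced by abscisic acid in barley, had 9.65, 9.40 and 9.30 at 70 d, against 9.07, 8.62 and 8.65 at 42 d, and moved the other way, by -0.67, in spring Manitou. A short chain dehydrogenase had 7.42, 7.10 and 7.50 at 70 d, against 5.35, 6.55 and 5.59 at 42 d, a rise of 1.51, and changed by -0.27 in spring Manitou. An undescribed probeset, 7.78-fold lower at 70 d in spring Norstar, differed by -2.29. Of the 6 described ones, only the dehydrogenase passed in every fit that left out 1 array of either line.

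**Figure D5:**
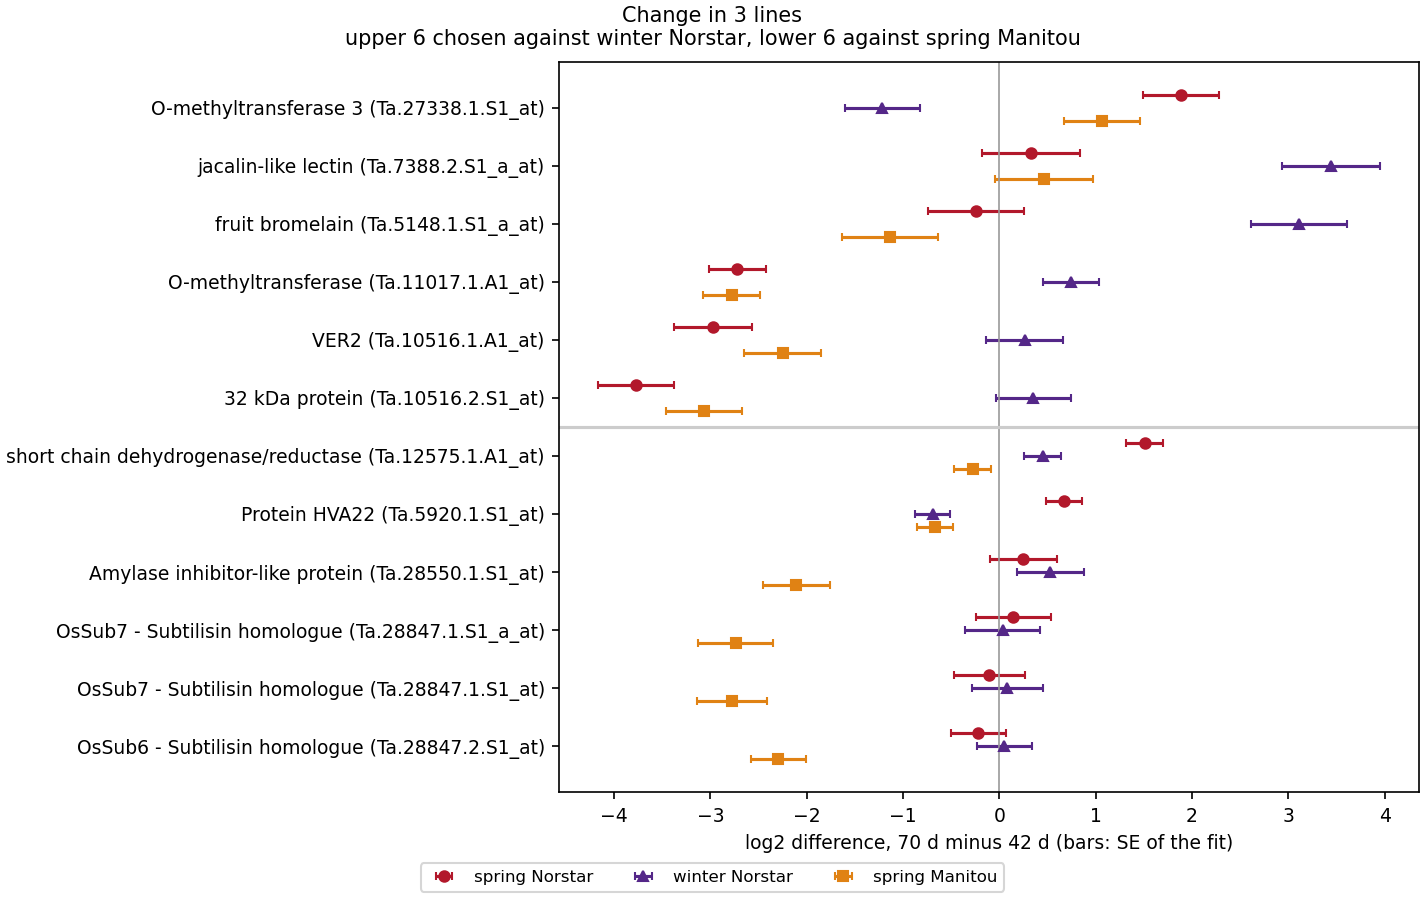
Log2 difference of 70 d minus 42 d with its SE for 12 probesets in spring Norstar (red circles), winter Norstar (purple triangles) and spring Manitou (orange squares). The upper 6 were chosen for the largest difference from winter Norstar and the lower 6 for that from spring Manitou, so the separation itself is no test. The 32 kDa protein lies at -3.77 in spring Norstar, against 0.35 in winter Norstar and -3.06 in spring Manitou.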

How the data were processed

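The authors hybridized crown RNA to Affymetrix Wheat GeneChips, extracted the signals with MAS 5.0 and normalized them by RMA in GeneSpring; the RMA version is not given in the sources used here. The deposited file holds the resulting log2 values of 61290 probesets on 96 arrays, from 4 lines and 8 days with 3 arrays each, and these were used as deposited. The 111 Affymetrix controls were left out. The sampling day was taken as 21 d where a protocol text gives another day, since the sample labels and the methods both give 21. Names came from the study's supplementary list and text and from the probe annotation. The same sources set the members of the gene lists. The study's list and its named genes were also counted as sets of their own.

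The 96 arrays were fitted with 32 means, 1 for every line on every day, in limma 3.58.1 in R 4.3.3 (lmFit and eBayes, 64 residual degrees of freedom; input read with the data.table package, version 1.17.8), and p-values were adjusted by Benjamini-Hochberg over 61179 probesets. Differences between lines were contrasts of the 70 d minus 42 d differences. Named were the 12 largest described rises and falls without overlap and with a mean of at least 6 in the higher group, the 2 largest undescribed ones each way, the study's named genes, up to 3 of each of 20 gene lists by adjusted p, and 6 per contrast between lines; other list members and all flowering genes were added as examples after their values were seen. The members and lists were chosen with earlier results of these data known. Alternatives were a filter on dim probesets, fewer arrays, 2 other scalings, a trended variance, array weights, other thresholds, a replicate block, a harvest block and leaving out each array. The code was tried on simulated arrays with independent noise and an equal spread in every group. That trial cannot speak for the wider 42 d group. The precision is limited by 3 arrays a group. The plot of changes by line gives full probeset identifiers. Probe sequences were not used here.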

Additional observations from a re-analysis of the deposited data

Results flagged for a closer look

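The change from 42 d to 70 d differed between spring Norstar and a second line, by the test of the difference itself, for 44 of the values reported here; 36 are set against winter Norstar and 8 against spring Manitou. Values are the change in spring Norstar minus that in the other line, on the log2 scale, and no explanation was tested. They include probesets that the naming rule took for this very difference.

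Against winter Norstar, some genes of dividing cells were more negative in spring Norstar, with Histone H4 at -1.11 and -1.16, histone H3 at -1.18, mad3 at -1.11 and Replication protein A2 at -1.13. Further negative values were those of the 32 kDa protein (-4.12), VER2 (-3.24), the O-methyltransferase that fell (-3.46), fruit bromelain (-3.35) and the jacalin-like lectin (-3.11). Thionin Osthi1 stood at -2.87, an undescribed probeset at -2.75, the major facilitator antiporter at -2.58 and the ankyrin repeat protein at -1.79. VRN-A1 was at -1.35, the transmembrane protein at -1.16 and OsSCP10 at -1.05.

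More positive in spring Norstar than in winter Norstar were O-methyltransferase 3 (3.10), the probeset with opposing names (2.88), a RuBisCO large subunit-binding protein (2.81, from signals near the floor of the scale), the protamine-like protein (2.72) and the glycine-rich cell wall protein (2.21). Cold-related genes in this set were BLT14.2 (1.94), CBFIVb-A20 (1.90, dim in spring Norstar on both days), the LEA protein with the largest rise (1.69), BLT14.1 (1.44) and HVA22 (1.37). The arginine/serine-rich protein stood at 1.72, MtN21 at 1.64, an undescribed probeset of the study's text at 1.64, the dirigent-like protein at 1.44 and the vacuolar sorting receptor at 1.32. The iron/ascorbate-dependent oxidoreductase was at 1.30, a peroxidase precursor at 1.23, the short chain dehydrogenase at 1.06 and the proline-rich protein APG at 1.02.

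Against spring Manitou, the positive values were those of both OsSub7 probesets (2.88 and 2.67), the amylase inhibitor-like protein (2.35), OsSub6 (2.08), the short chain dehydrogenase (1.78), HVA22 (1.34) and the iron/ascorbate-dependent oxidoreductase (1.25). An undescribed probeset, 7.78-fold lower at 70 d in spring Norstar, was more negative, at -2.29.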

How the results depend on the processing

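Leaving out 1 array at a time gave 797 to 2027 higher and 246 to 719 lower probesets at 70 d against 42 d, 354 to 907 that differed from winter Norstar, 28 to 147 that differed from spring Manitou, 0 to 148 at 56 d against 42 d and 493 to 893 at 70 d against 56 d. The low ends of the main counts came without array 1 at 42 d and the high ends without array 2 at 42 d. With array weights 577 were higher and 254 lower, 310 differed from winter Norstar, 10 from spring Manitou, and 0 changed at 56 d against 42 d. With the 6 arrays alone 3 were higher and 1 lower. With no limit on the fold 6893 were higher and 5047 lower, 1781 differed from winter Norstar, 9 changed at 56 d against 42 d and 4933 at 70 d against 56 d. At an adjusted p under 0.05, 101 differed from spring Manitou and 6 changed at 56 d against 42 d; that last count was 1 under either other scaling and 0 with the spring Norstar arrays alone. The causes were not tested beyond the fewer arrays in some fits.

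The replicate numbers did not pair the arrays: the correlations of same-numbered deviations were -0.05, 0.12 and 0.13. With a replicate block 1129 were higher and 410 lower, 563 differed from winter Norstar and 70 from spring Manitou. The harvest block joined arrays of the same day and number across lines. With it 1130 were higher and 412 lower, 636 differed from winter Norstar and 87 from spring Manitou. In neither fit did a count move by over 1.5 times.

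Signs turned only for genes that were not called. One OsSub7 probeset was -0.053 with array weights and -0.54 to 0.79 leaving out 1 array. Ranges over the same left-out arrays were -0.54 to 0.48 for the other OsSub7 probeset, -0.52 to 0.083 for OsSub6, -0.58 to 0.21 for fruit bromelain, -0.26 to 0.63 for the amylase inhibitor-like protein, -0.71 to 0.08 for WCOR518, -0.048 to 0.30 for LEA29 and -0.14 to 0.0067 for gamma-thionin. Of the 59 named probesets called, 57 kept their call without array 2 at 42 d, 49 without array 1 and 52 without array 3.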
